A study of Mus musculus with 19 samples.

Results

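Metallothioneins and S100 proteins are 2 families of small proteins that bind metal ions, and 10 of their genes were followed here in mouse glial progenitor cells and in glial cells. The genes were taken by symbol from the expression table, which holds 22958 genes: the metallothionein genes Mt1, Mt2 and Mt3, and the S100 genes S100b, S100a1, S100a4, S100a6, S100a10, S100a13 and S100a16. All 10 were present once and all 10 passed the filter on low counts. RNA was sequenced from 4 libraries of glial progenitor cells (GPC) and 3 of glial cells (glia), and chromatin immunoprecipitation (ChIP-seq) in GPC gave 1 list of bound regions, or peaks, for each of the factors SOX3, SOX9 and NFIA. The GPC were derived from mouse embryonic stem cells with all-trans retinoic acid, sorted magnetically for the A2B5 surface antigen and grown on fibronectin with EGF and FGF2. The glia are labelled as derived from embryonic stem cells too, but they carry the GPC protocol text, so how they were made, and whether EGF and FGF2 were withdrawn, could not be read from the labels. No genotype, strain or agent beyond these is given for either group, and nothing says whether the replicates are separate cultures, so the p-values rest on a spread between libraries that may be technical only.

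Metallothioneins are cysteine-rich proteins that hold zinc and copper and buffer their free levels in the cell. Transcription of Mt1 and Mt2 is driven by zinc through the factor MTF1, which binds metal response elements in their promoters, and also by glucocorticoids and cytokines. In the brain Mt1 and Mt2 are mainly astrocyte genes, while Mt3, the growth inhibitory factor, is a brain form that responds little to metals. S100 proteins are EF-hand calcium-binding proteins that pair into dimers and act through binding partners such as annexins. S100b is a classic marker of astrocytes and is also made by oligodendrocyte lineage cells.

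Reads counted in genes ran from 12836998 to 22439837 in GPC and from 6897294 to 17369367 in glia. GPC replicate 3 was the deepest library and stood apart from the other GPC libraries, where a chi-square test of its counts against them gave 24.6 to 28.4 per gene and the other GPC pairs gave 1.997 to 3.46. It was the highest GPC library for 4 of the 10 genes (Mt1, Mt2, Mt3 and S100a16), the lowest for 4 (S100a1, S100a4, S100a6 and S100a10) and neither for S100b and S100a13, so values without it are given where they matter. Of the 8 astrocyte markers examined 6 were called higher in glia and 2 lower, and all 8 oligodendrocyte markers were higher. Of the 6 markers of oligodendrocyte precursors 3 were higher and 3 lower, with sums of 1605 to 1769 RPKM in GPC and 1051 to 1423 in glia. Most of these sums was Olig1 (means of 1110 RPKM in GPC and 496 in glia) and Olig2 (534 and 275). Olig1, Olig2 and Cspg4 were called lower, and Pdgfra, Gpr17 and C1ql1 higher. Over all genes tested 35.2% were called higher in glia and 35.2% lower. In bulk RNA a change in the share of a cell type and a change of RNA per cell cannot be told apart.

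All 3 metallothionein genes rose in glia, and 5 of the 7 S100 genes did. None of the 10 fell. The 8 that rose did so by 2.75-fold (Mt3) to 11.4-fold (S100a4) in mean RPKM, reads scaled to gene model length and library size. S100a6 and S100a10 did not pass the test. Among all 13588 genes tested, 35.2% were called higher in glia and 35.2% lower, 70.4% in either direction (edgeR quasi-likelihood F test, two-sided, p adjusted by Benjamini-Hochberg under 0.05), so a call as such is common in this comparison. The 3 glia libraries lay above all 4 GPC libraries for 8 of the 10 genes and below them for none, where 35.3% and 34.2% of all genes tested did so. The sizes place the genes further: their log2 changes stood at percentiles 88.8 (Mt3) to 97.6 (S100a4) of all genes tested for the 8 that rose, and at 75.6 for S100a6 and 48.9 for S100a10. The median log2 change was 2.27 over the 3 metallothionein genes and 2.34 over the 7 S100 genes, beside 0.0013 over all genes tested. Without GPC replicate 3 the medians were 2.55 and 2.40, and 6 of the 7 S100 genes were called. In that fit 75.8% of all genes tested were called in either direction.

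**Figure D1:**
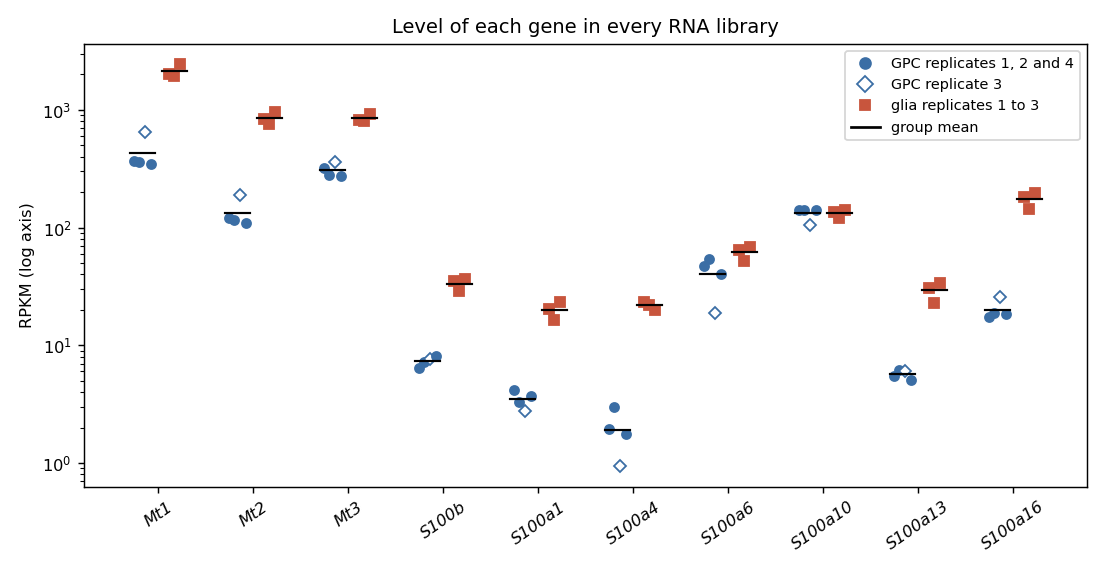
RPKM (log axis) of the 10 genes in each of the 4 GPC libraries (blue, replicate 3 as open diamonds) and 3 glia libraries (red squares), with group means as black lines. The glia values lie above all GPC values for 8 genes and overlap them for S100a6 and S100a10.

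Mt1 was the most abundant of the 10 genes in both groups. GPC replicates 1 to 4 held 366, 359, 651 and 349 RPKM of Mt1, while glia replicates 1 to 3 reached 2012, 1922.5 and 2450.1 RPKM. All glia libraries lay above all GPC libraries, and GPC replicate 3 was the one GPC library well above the rest. Mean levels were 431 ± 147 RPKM in GPC (SD, n = 4) and 2128 ± 282 RPKM in glia (n = 3), a rise of 4.94-fold, or 5.95-fold without GPC replicate 3. The log2 change was 2.27 ± 0.24 (SE; edgeR adjusted p = 5.388e-05). The astrocyte markers, the cell type in which Mt1 and Mt2 are mainly known, summed to 757 to 1109.8 RPKM in GPC and 4761 to 5410 in glia, and their part in the rise of the metallothioneins was not tested. Most of that difference was in Gfap, which had 8.37 RPKM in GPC and 3258 in glia. Without it the other 7 summed to 751.6 to 1094.4 RPKM in GPC and 1829 to 1922 in glia, and 2 of them, Slc1a3 and Aldh1l1, were called lower. By mean RPKM Mt1 moved from place 90 among all genes in GPC to place 8 in glia.

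Mt2, which codes for the near relative of the Mt1 protein and lies next to Mt1 among the protein-coding genes of chromosome 8, rose most of the 3. It held 120.2, 116, 190.3 and 109 RPKM in GPC replicates 1 to 4 and 829, 755 and 956 RPKM in glia. The groups did not overlap, and GPC replicate 3 again stood above the other progenitor libraries. The mean went from 134 ± 37.9 to 847 ± 102 RPKM, or 6.32-fold (7.36-fold without GPC replicate 3), a log2 change of 2.62 ± 0.20 (edgeR adjusted p = 7.226e-06). Its place among all genes went from 563 to 32.

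Mt3, the brain form, was already abundant in the progenitors and rose least. GPC replicates 1 to 4 held 322, 281, 358 and 276 RPKM, and glia 826, 799 and 929 RPKM. The glia libraries were all above the GPC libraries, whose highest value was again replicate 3. The mean rose 2.75-fold, from 309 ± 38.2 to 851 ± 68.6 RPKM, with a log2 change of 1.43 ± 0.10 (edgeR adjusted p = 7.754e-07). Mt4, the fourth metallothionein gene and one of squamous epithelia, had 0 reads in GPC and 1 read in glia, which is under the floor of 3 reads (0.0490 CPM, counts scaled to library size, over the 4 GPC libraries).

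The shares of the 3 genes in their summed RPKM differed between the groups in these libraries. Mt1 and Mt3 were close in GPC, where Mt1 held 48.6% ± 3.91 (SD, n = 4) of their summed RPKM and Mt3 36.1% ± 4.35. In glia Mt1 held 55.6% ± 0.858 (n = 3), Mt3 22.3% ± 0.799 and Mt2, at 15.2% ± 0.483 in GPC, 22.1% ± 0.452. The log2 ratio of Mt3 to Mt1 was -0.18, -0.35, -0.86 and -0.34 in GPC replicates 1 to 4 and -1.28, -1.27 and -1.40 in glia. It was lower in all 3 glia libraries, by 0.88 in the mean, and GPC replicate 3 was the progenitor library nearest to glia. The log2 ratio of Mt2 to Mt1 was -1.61, -1.63, -1.77 and -1.68 in GPC and -1.28, -1.35 and -1.36 in glia, higher in glia by 0.34 in the mean with no overlap. For each ratio the exact permutation test over the 7 libraries, with the one-sided p doubled, gave p = 0.0571, the smallest that the 35 splits allow under this definition. Counting instead the splits with at least as large an absolute difference, the exact permutation p was 0.0286 for Mt2 to Mt1 and 0.0571 for Mt3 to Mt1. The choice between these definitions was made after both values were seen. Adjusted over the 2 ratios, the exact permutation p was 0.0571 for both ratios under either definition, so neither ratio passed. The 3 genes together had 733.8 to 1199 RPKM in GPC and 3476 to 4335 RPKM in glia, a mean 4.38-fold higher.

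**Figure D2:**
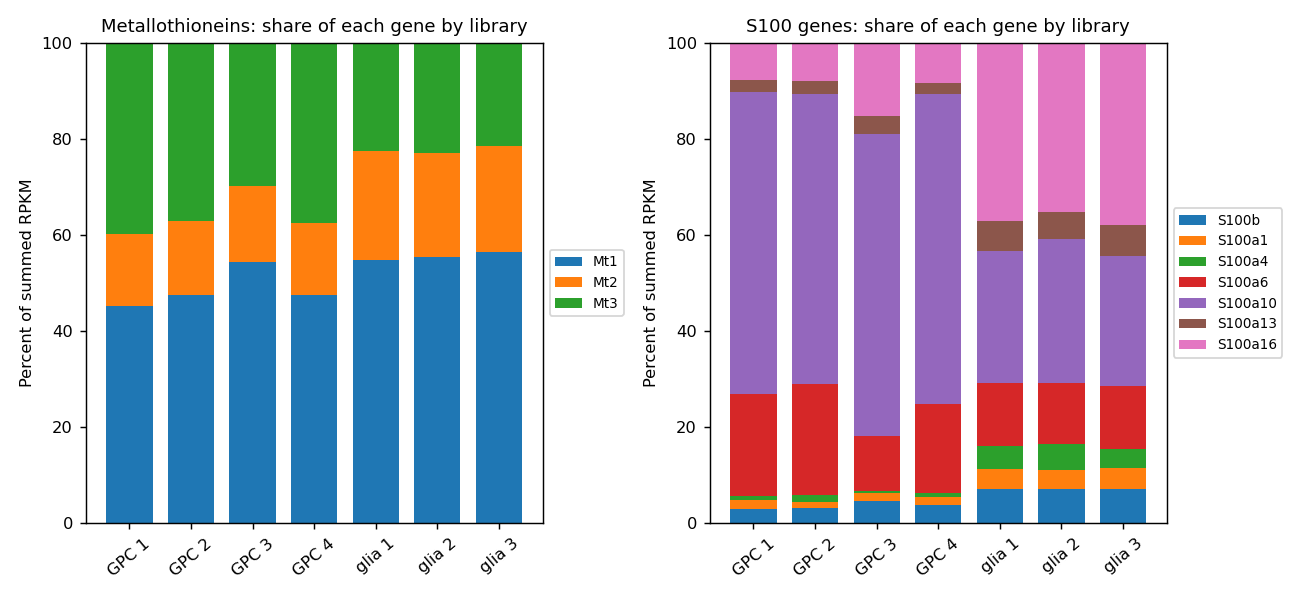
Share of each gene in the summed RPKM of its family (percent, stacked to 100) in each of the 7 libraries, metallothioneins on the left and S100 genes on the right. Mt3 shrinks from 36.1% in GPC to 22.3% in glia on average, and S100a10 from 62.7% to 28.1% while S100a16 grows from 9.89% to 36.7%.

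The promoters of the metallothionein genes are shown because the 3 genes rose together and Mt1 and Mt2 are the textbook targets of MTF1. The sequences are the 250 bases before the RefSeq start of each gene (build GRCm38.p6, plus strand, 5′ to 3′), at chr8:94178839-94179088 for Mt1, chr8:94172368-94172617 for Mt2 and chr8:94152357-94152606 for Mt3. Capitals mark the core of the metal response element, searched as TGCGCNC and TGCACNC on both strands.
Mt1: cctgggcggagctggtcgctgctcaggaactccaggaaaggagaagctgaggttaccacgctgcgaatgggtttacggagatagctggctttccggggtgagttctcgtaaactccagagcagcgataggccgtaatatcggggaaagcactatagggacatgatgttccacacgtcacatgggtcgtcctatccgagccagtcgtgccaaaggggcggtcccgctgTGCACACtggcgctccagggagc
Mt2: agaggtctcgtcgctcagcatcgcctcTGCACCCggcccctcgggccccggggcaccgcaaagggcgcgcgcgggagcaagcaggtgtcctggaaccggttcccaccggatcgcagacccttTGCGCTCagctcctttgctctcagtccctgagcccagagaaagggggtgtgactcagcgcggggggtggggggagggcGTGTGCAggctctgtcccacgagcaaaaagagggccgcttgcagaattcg
Mt3: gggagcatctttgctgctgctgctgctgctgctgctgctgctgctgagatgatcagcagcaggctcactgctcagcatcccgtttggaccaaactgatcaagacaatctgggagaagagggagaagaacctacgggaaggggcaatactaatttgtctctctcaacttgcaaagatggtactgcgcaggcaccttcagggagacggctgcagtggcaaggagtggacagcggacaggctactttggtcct
Over the whole window of 300 bases, which also takes in the first 50 bases of the gene, Mt2 held 4 matches, Mt1 3 and Mt3 1. In the printed part these are the 3 of Mt2 and 1 of Mt1. Of 32851 RefSeq promoter windows of this length 25.7% held at least 1 match, 1.97% at least 3 and 0.517% at least 4. Counted from the start, the Mt1 matches began at bases -23, 3 and 21, all on the gene's strand. Those of Mt2 began at -223, -128, -50 and 5, the latter pair on the opposite strand, and that of Mt3 at 28. A match gives letters, not a bound site. Only 1 RefSeq start per metallothionein gene was searched, and where transcription begins in these cells was not examined. The counts and positions, and the split into upstream and gene bases, hold for these windows only.

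**Figure D3:**
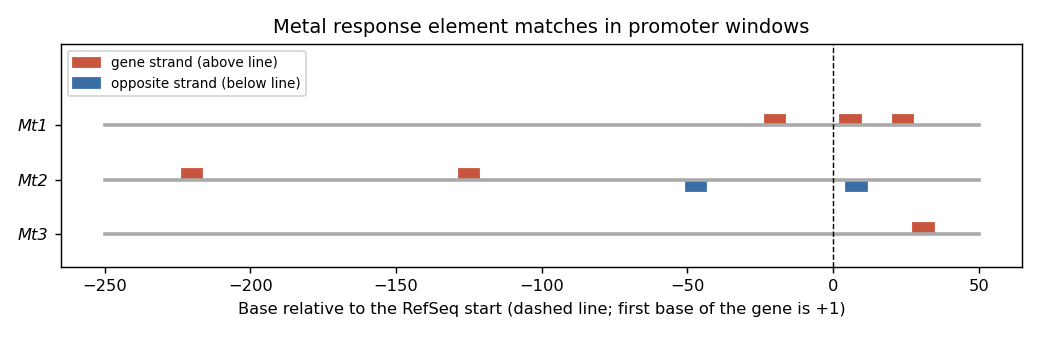
Positions of metal response element matches (boxes, above the line on the gene's strand and below it on the opposite strand) in the 300-base promoter windows of Mt1, Mt2 and Mt3, by distance in bases from the RefSeq start (dashed line). Mt2 holds 4 matches, Mt1 3, and Mt3 1, which lies past the start.

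The same motif was in 1 of the 7 S100 windows. Windows were found for 9 of the 10 genes, with a pair of windows for S100a16 and none for S100a10. Among the S100 windows 1 of the S100a16 pair held 1 metal response element match and 1 match to the SOX motif (searched as ACAAAG and ACAATG, both strands, found in 28.6% of all windows), and the other S100 windows held neither. The metallothionein windows held no SOX match. The full palindromic NFI site was in none of these windows and in 0.0365% of all windows.

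Genes that handle zinc moved in both directions, and the MTF1 gene itself was not called. Of 25 listed zinc transporters and Mtf1, 20 had enough reads to be tested, 8 rose and 4 fell, with a median log2 change of 0.10. Over all genes tested 35.2% were called higher and 35.2% lower, so calls in both directions are common in this comparison. Mtf1 had 5.499 ± 0.673 RPKM in GPC, against 5.11 ± 0.253 in glia, a log2 change of -0.14 ± 0.10 (edgeR adjusted p = 0.246). Slc39a12, a zinc importer of the brain, had means of 4.15 ± 1.83 and 82.9 ± 6.68 RPKM and rose by 4.23 ± 0.27 on the log2 scale (edgeR adjusted p = 3.087e-06). Its GPC replicates 1 to 4 held 3.09, 3.66, 6.86 and 2.98 RPKM, and no glia library held less than 75.7 RPKM. Without GPC replicate 3 the mean of Slc39a12 was 25.6-fold higher in glia. Slc30a10, a transporter known for exporting manganese, rose by 2.26 ± 0.28 and Slc39a14, an importer of zinc, iron and manganese, by 2.198 ± 0.09 on the log2 scale. The largest falls were those of Slc39a8, another metal importer with a log2 change of -2.10 ± 0.57 at under 0.6 RPKM in every library, Slc39a7, which releases zinc from the endoplasmic reticulum (-0.73 ± 0.07), and Slc39a10 (-0.55 ± 0.15). The zinc exporter Slc30a1, itself a known MTF1 target, rose by 0.35 ± 0.09, from 11.1 to 14.4 RPKM, and is named here after its value was seen.

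Copper handling genes showed mostly small differences. Of 9 tested, 2 rose and 3 fell, with a median log2 change of -0.15, where 70.4% of all genes tested were called in either direction. Slc31a2, a copper transporter of endosomes and lysosomes, had 3.33 ± 0.323 RPKM in GPC, 14.6 ± 1.13 in glia and a log2 change of 2.10 ± 0.11, while Ccs, the copper chaperone of superoxide dismutase, rose by 0.41 ± 0.09. Commd1, a regulator of copper export, changed by -0.56 ± 0.10, Sod1, the copper-zinc superoxide dismutase, by -0.33 ± 0.10 with overlapping groups, and Cox17, the copper chaperone of cytochrome oxidase, by -0.28 ± 0.10. Without GPC replicate 3, 9 of the zinc list rose and 5 fell, and 3 and 4 of the copper list did. The share called over all genes tested was then 75.8%.

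**Figure D4:**
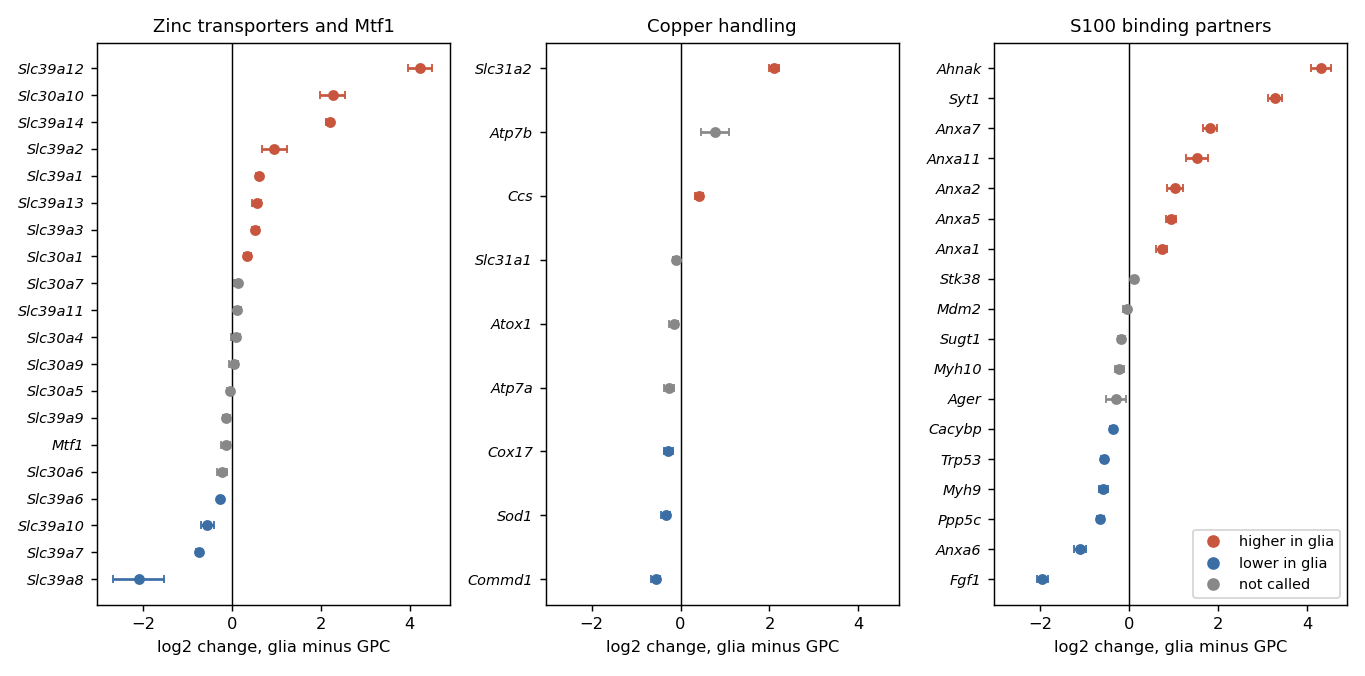
Log2 change, glia minus GPC, with its standard error for every tested gene of the zinc, copper and S100 partner lists; red is called higher in glia, blue lower and grey not called. Each list holds genes on both sides of 0, led upwards by Slc39a12, Slc31a2 and Ahnak.

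S100b, the astrocyte marker of the family, was low in GPC and rose in glia. It held 6.43, 7.2, 7.63 and 8.05 RPKM in GPC replicates 1 to 4, and 34.97, 28.7 and 36.3 RPKM in glia. The groups lay well apart and GPC replicate 3 sat within the other GPC values. The mean rose 4.55-fold, from 7.33 ± 0.695 to 33.3 ± 4.07 RPKM, a log2 change of 2.16 ± 0.11 (edgeR adjusted p = 8.661e-08). Of the astrocyte markers 6 rose and 2, Slc1a3 and Aldh1l1, fell, while all 8 oligodendrocyte markers rose, from sums of 95.6 to 117.7 RPKM to sums of 1622.5 to 2287 RPKM. The part of either cell type in the result was not tested.

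S100a1 is the closest relative of S100b and best known from muscle and neurons, and S100a13 assists the export of FGF1. Both were low in GPC and rose in glia, with S100a13 above S100a1 in every library. S100a1 held 4.16, 3.29, 2.74 and 3.70 RPKM in GPC, against 20.4, 16.5 and 23.3 in glia. S100a13 held 5.46, 6.22, 6.06 and 5.09 RPKM in GPC, against 31.0, 22.9 and 33.9 in glia. In both genes every glia library exceeded every GPC library, and glia replicate 2, the shallowest library, was the lowest of the glia. S100a1 rose 5.77-fold (log2 change 2.53 ± 0.18) and S100a13 5.13-fold (2.34 ± 0.16), with edgeR adjusted p of 8.269e-07 and 5.232e-07. Of 7 neuron markers tested 4 were higher in glia and none lower, where 35.2% of all genes tested were called higher. Those called were Elavl3 (11.4-fold), Dcx (6.65-fold), Rbfox3 (3.75-fold) and Tubb3 (1.84-fold). Snap25, Elavl4 and Stmn2 were not called, with log2 changes of 0.11, 0.10 and -0.73. The neuron list summed to 33.0 to 37.9 RPKM in GPC and 99.0 to 113 in glia. The 4 ependyma markers tested were all higher, with sums of 13.4 to 20.2 and 39.97 to 48.2 RPKM. Their part in the results was not tested.

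The RefSeq extents of these 2 genes overlap on opposite strands of chromosome 3, although transcripts from the pair of starts described next would run apart. Whether the counted transcript models reach the overlap, and whether reads were counted by strand, is not given. It could therefore not be told whether the 2 genes share reads. Their RefSeq starts face away from each other across 104 bases, shown because both genes that rose begin at its ends (chr3:90514331-90514434, GRCm38.p6, plus strand, with S100a1 starting before its left end on the minus strand and S100a13 after its right end). No motif is marked in it.
S100a1-S100a13: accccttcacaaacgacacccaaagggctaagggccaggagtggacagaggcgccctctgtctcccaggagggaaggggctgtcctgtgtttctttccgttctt

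S100a16, a widely expressed S100 protein, became the most abundant S100 gene of the 7 in glia. It held 17.4, 18.7, 25.6 and 18.3 RPKM in GPC, against 182.7, 143.6 and 196 in glia. GPC replicate 3 was the highest GPC library but still far under the lowest glia library. The mean rose 8.70-fold, from 20.0 ± 3.77 to 174 ± 27.2 RPKM (9.60-fold without GPC replicate 3), a log2 change of 3.08 ± 0.16 (edgeR adjusted p = 2.005e-07). Its place by mean RPKM among all genes went from 4983 to 325.

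S100a4, also called fibroblast-specific protein and known from fibroblasts and white matter astrocytes, had the largest log2 change of the 10 with all libraries. GPC replicates 1 to 4 held 1.94, 2.99, 0.934 and 1.78 RPKM, from 13, 20, 11 and 12 reads, while glia had 23.5, 22.2 and 19.9 RPKM, from 202, 77 and 173 reads. The lowest GPC value was that of replicate 3, and glia values lay close together. The mean rose 11.4-fold, or 9.78-fold without GPC replicate 3, a log2 change of 3.51 ± 0.26 (edgeR adjusted p = 1.027e-06). Without GPC replicate 3 its log2 change was 3.20 and that of S100a16, at 3.24, was the larger. Of the 10 mesenchyme markers 9 rose and 1 fell, where 35.2% of all genes tested were called higher and 35.2% lower. The 10 markers summed to 176 to 189 RPKM in GPC and 678 to 818 RPKM in glia. Their part in the result was not tested. Microglia and macrophages also express S100a4. Of their 8 markers, Cx3cr1 had no read in any library, and Aif1, Csf1r, Itgam and Ptprc had means under 0.03 RPKM in both groups. P2ry12 had 0.125 and 0.123 RPKM in GPC and glia, and Cd68 had 3.42 and 3.26 RPKM and was not called. Tmem119 was called higher in glia, with means of 1.74 RPKM in GPC and 8.07 in glia.

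S100a6, calcyclin, a gene of growing cells and fibroblasts, was moderately abundant in both groups and did not pass the test. It held 47.6, 54.2, 18.9 and 40.5 RPKM in GPC replicates 1 to 4 and 64.7, 51.9 and 67.98 RPKM in glia. The groups overlapped by 1 pair of libraries, and GPC replicate 3 was 0.399-fold the mean of the other GPC libraries. The log2 change was 0.61 ± 0.32 with a 95% interval of -0.13 to 1.35 (edgeR adjusted p = 0.1197). Without GPC replicate 3 the change was smaller but passed, at 0.37 with an edgeR adjusted p of 0.01278, so the call on S100a6 rests on that library.

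S100a10, the partner of annexin A2 that has lost calcium binding, was the most abundant S100 gene of the 7 in GPC. It held 141, 141.6, 104.8 and 139.9 RPKM in GPC, against 135, 121.7 and 139.9 in glia. The ranges of the groups overlapped, with GPC replicate 3 the lowest library of all 7. The means were 132 ± 18.0 and 132 ± 9.51 RPKM, with a log2 change of -0.02 ± 0.11 whose 95% interval runs from -0.26 to 0.23 (edgeR adjusted p = 0.8928). A change of more than 0.26 on the log2 scale in either direction is outside that interval. Its sign was not stable, being above 0 with upper-quartile scaling (0.03).

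**Figure D5:**
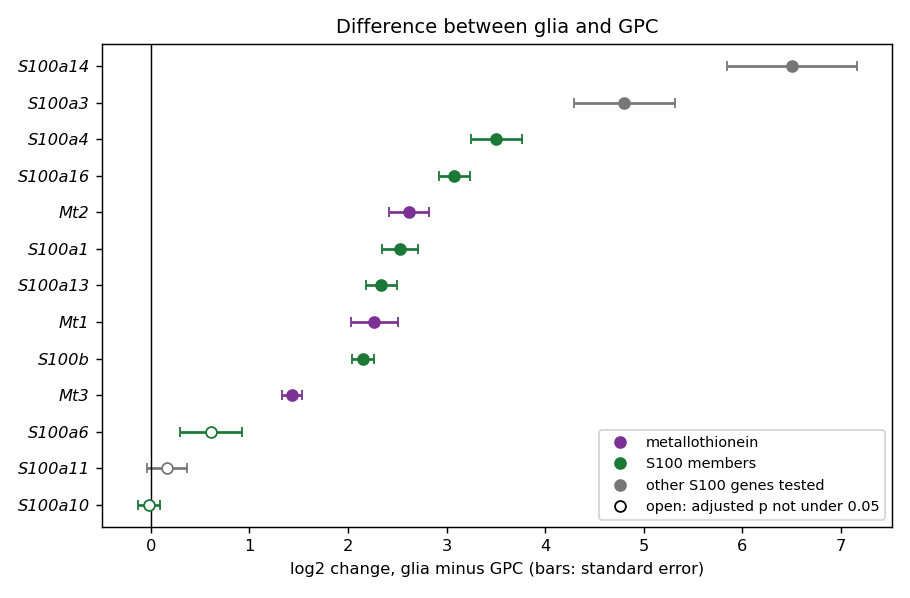
Log2 change, glia minus GPC, with its standard error for the 3 metallothioneins (purple), the 7 S100 genes (green) and 3 other S100 genes with enough reads (grey); open symbols did not pass an adjusted p of 0.05. S100a10, S100a11 and S100a6 have open symbols, and the other genes lie between 1.43 (Mt3) and 6.50 (S100a14).

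The order of levels changed between the groups. In GPC the range of S100a10 (mean 132 RPKM) overlapped that of Mt2 (134 RPKM), and S100a6 and S100a16 overlapped each other. Mt1 and Mt3 also overlapped in range, as did S100a1 and S100a4. Within each GPC library, however, Mt1 was above Mt3 and S100a1 above S100a4. In glia Mt1 stood clear of the other genes, Mt2 and Mt3 overlapped (847 and 851 RPKM), and S100a16, S100a10 and S100a6 followed in that order with ranges that did not touch. S100b, S100a13, S100a4 and S100a1 came last, each overlapping the next in range, although within each glia library S100b was above S100a13 and S100a13 above S100a4. The 7 S100 genes together had 167 to 234 RPKM in GPC and 407 to 517 RPKM in glia.

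Other S100 genes were low or not called. S100a14 and S100a3 are the neighbours of S100a16 on chromosome 3 in RefSeq. S100a14 had 1 read over the 4 GPC libraries and 98 reads over the 3 glia libraries, a ratio per read in genes of 145 with an exact 95% counting interval of 25.4 to 5779. S100a3 had 3 and 69 reads, a ratio of 34.0 (11.2 to 169). Both passed the test (edgeR adjusted p = 9.71e-06 and 1.391e-05), and neither exceeded 2.91 RPKM in any library. S100a11, like S100a10 a partner of annexins, was not called, at 84.6, 91.7, 47.2 and 84.4 RPKM in GPC, against 82.5, 97.4 and 83.4 in glia (log2 change 0.17 ± 0.20, edgeR adjusted p = 0.4818). A pseudogene of S100a11 is annotated in RefSeq, so its reads may be shared. The genes of the inflammatory pair S100a8 and S100a9 had 1 and 0 reads in all 7 libraries. S100a7a had 0 reads in GPC and 9 in glia, a ratio per read in genes of 4.43 with GPC set to the floor of 3 reads. That ratio leaves out the counting error of the 9 reads and is not a lower limit. S100a5, which lies between S100a4 and S100a6 in RefSeq, and S100z had no reads. A count of 0 over all 7 libraries allows up to 0.0292 CPM, counting error only.

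Known partners of S100 proteins went both ways. Of 18 tested, 7 rose and 6 fell, with a median log2 change of -0.12. Over all genes tested 35.2% were called higher and 35.2% lower, so these counts set the partners apart in neither direction. Without GPC replicate 3, when 75.8% of all genes tested were called, 7 rose and 8 fell. Anxa2, the partner of S100a10, went from a mean of 60.0 ± 15.8 to one of 126 ± 12.7 RPKM, with 51.7, 52.3, 83.7 and 52.2 RPKM in GPC, against 124, 140.3 and 115 in glia (log2 change 1.03 ± 0.18, edgeR adjusted p = 0.0008691). Ahnak, a giant protein that docks on the complex of S100a10 and annexin A2, had a log2 change of 4.31 ± 0.23 in counts, while its mean RPKM, which the authors gave for a pair of transcript models in 1 row, was 0.604 in GPC, 5.54 in glia and 9.18-fold higher, a smaller difference than that of the counts. Fgf1, which S100a13 helps to export, fell from 62.4 ± 10.2 to 16.5 ± 0.267 RPKM (log2 change -1.95 ± 0.12), while Syt1, the synaptotagmin of that export complex, rose by 3.28 ± 0.15 to 4.79 RPKM. Anxa7 rose by 1.81 ± 0.16, Anxa6 changed by -1.10 ± 0.14 and the phosphatase gene Ppp5c by -0.65 ± 0.08. Cacybp, the calcyclin-binding protein, changed by -0.36 ± 0.07, and Ager, the receptor RAGE that binds secreted S100b, was not called, at 3.41 ± 0.575 and 2.85 ± 0.799 RPKM (log2 change -0.30 ± 0.23).

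The authors' ChIP-seq peak lists pair few peaks with these genes. No SOX3 peak and 2 SOX9 peaks were paired with the 10 genes, 1 with Mt3 and 1 with S100a16, where 5.65% of the genes tested for expression had at least 1 SOX3 peak and 11.2% at least 1 SOX9 peak paired with them. Nothing about the genes as a group is read from a count of 2 in 10 beside that share. The Mt3 peak lies at chr8:96678310-96678910 (mm9), 2102 bp past the start of Mt3, and 10.2% of the 2943 SOX9 peaks were as near to a start or nearer. The S100a16 peak lies at chr3:90359742-90360342 (mm9), 18865 bp past its start. Neither overlapped an NFIA peak, which 28.4% of SOX9 peaks did, nor a SOX3 peak, which 10.8% did. The nearest NFIA peak was 61.7 kb from the Mt3 peak and 7.38 kb from the S100a16 peak, with scores of 21 and 15 where the list's median is 16, and the nearest SOX3 peaks were 236 and 902 kb away. Both genes with a peak were higher in glia, while the peaks were mapped in GPC.

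Among genes of the partner and metal lists SOX9 peaks were paired with Anxa2 (1 peak, 49.9 kb past its start) and Slc39a11 (5 peaks, the nearest 126 kb past its start). Cacybp, Myh10 and Syt1 had 1 SOX9 peak each, at -187.4 kb, -381 bp and -58 bp, where a minus sign is before the start. SOX3 peaks were paired with Slc39a11 (125.9 kb), Anxa1 (268.2 kb) and Ahnak (-4.7 kb). The genes with a peak include some that rose, some that fell and some not called.

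The genes whose profile over the 7 libraries was most like that of Mt1 were Cst3, the protease inhibitor cystatin C, Pla2g7, a secreted phospholipase, and Islr. Likeness was the root mean square difference of log2 CPM, each gene centred on its own mean, over the 10323 genes with a mean of at least 10 CPM. It was 0.0657 for Cst3, 0.0660 for Pla2g7 and 0.106 for Islr, against 0.178 for Mt2, which ranked 22, and 0.480 for Mt3, which ranked 415. For S100b the nearest were Ppp2r2c, a phosphatase subunit (0.0856), Bcas1, a gene of myelinating oligodendrocytes (0.0978), and Hcfc1r1 (0.104), and of the 10 genes S100a13 ranked highest, at 35 (0.169). These 6 genes were themselves called higher in glia, with log2 changes of 2.08 to 2.32. That follows from picking them by likeness to genes that rose, and is no separate result.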

How the data were processed

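The deposited table holds raw read counts per gene and RPKM beside them, scaled by the authors to gene model length and library reads per the file headers. The aligner, counting tool and strand setting are not stated in the sources available. The build was mm9 and MACS and MACS2 were named per the submitters' processing notes. Each factor had 1 deposited peak list over all its samples, and the SOX3 and SOX9 lists carry a gene and a distance assigned by the authors. The NFIA list carries a deposited score from 14 to 1677 whose meaning is not stated. The 2 input and 3 H3K27Ac samples were not analysed here.

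RPKM served for levels and shares, and counts for tests, in R 4.3.3 with edgeR 4.0.16 (TMM scaling, filterByExpr, robust quasi-likelihood fit of glia against GPC), Benjamini-Hochberg adjusted over 13588 genes. The standard error is the log2 change over the square root of F. The fit was tested on simulated data in which few genes changed and no library stood apart. These data differ on both points, so the simulation does not give their error rate. Alternatives were DESeq2 1.42.0, other scalings and filters, each library left out and a replicate block. Named genes were the 10 members and, per list, the 3 largest rises and 3 largest falls past the threshold, plus Mtf1, Anxa2, Ager and Cacybp. GPC replicate 3 stood apart, so list counts without it were added after seeing the data, as were the 300-base motif window (first 250) and the doubled definition of the permutation p, which replaced the share of splits with as large an absolute difference. Members and lists were chosen with earlier results of these data known. Promoter sequences are from RefSeq (GRCm38.p6) and were matched by symbol.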

Additional observations from a re-analysis of the deposited data

Results flagged for a closer look

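In the group of 4 GPC libraries, replicate 3 lay apart from the others for 4 of the 10 genes, by Dixon's gap test at the 95% level, where chance flags about 1 in 20 groups. Mt1 stood at 650.6 RPKM there against 349 to 366 in the other GPC libraries, Mt2 at 190.3 against 109 to 120.2, and S100a16 at 25.6 against 17.4 to 18.7. S100a10 lay the other way, at 104.8 RPKM against 139.9 to 141.6. S100a6, at 18.9 RPKM in that library, did not pass the gap test. GPC replicate 3 was the deepest library and differed from the other GPC libraries across the table. The share of all genes that this gap test would flag was not computed. The 4 flags are therefore not read as a trait of these genes.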

How the results depend on the processing

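Under the 13 alternatives (RLE and upper-quartile scaling, DESeq2, no filter, at least 50 counts in 3 libraries, the replicate block and each library left out) 8 of the 10 genes were called higher in 12, and 9 without GPC replicate 3, where S100a6 passed; none was called lower. For the 8 genes the log2 change ranged from 1.36 to 1.51 for Mt3 and from 3.20 to 3.79 for S100a4; Mt3 was the lowest of them in all 13 and S100a4 the highest except without GPC replicate 3, where S100a16 was (3.24), and no adjusted p exceeded 0.000604. S100a10 stayed near 0 and changed sign to 0.0266 with upper-quartile scaling, 0.0203 with at least 50 counts in 3 libraries and 0.0186 with the replicate block, and leaving out each library gave -0.1091 to 0.0381. The number of genes called over the table was 9568, or 8900 with the replicate block, 8367 to 10118 with the other settings and 8512 to 10273 with a library left out. Deviations from the group means correlated at -0.01, 0.10 and 0.06 between samples with the same number, and at -0.13 to 0.08 between the others. With so few libraries, such weak correlations cannot tell whether same-numbered samples share a culture. The replicate block gave the same 8 genes.

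The log2 ratio of Mt3 to Mt1 ranged from -1.03 to -0.80 and that of Mt2 to Mt1 from 0.31 to 0.36 with a library left out. The permutation p of the Mt2 to Mt1 ratio (0.34) depends on its definition, which was changed after the values were seen: the doubled p was 0.0571, the p by absolute difference 0.0286 as an exact permutation test, and 0.0571 once adjusted over both ratios. With a library left out the latter exact p was 0.0667 to 0.1, from fewer splits. Peak counts were the same with synonyms and within 100 kb. S100a4, S100a1 and S100a13 rest on the fewest reads, with 11 to 93 per GPC library.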
